A study of Mus musculus with 74 samples.

Results

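The 10 genes described here form the core of erythropoietin (EPO) receptor signalling and its best known early targets: the receptor Epor, the kinase Jak2, the transcription factors Stat5a and Stat5b, the survival factor Bcl2l1, the kinases Pim1 and Pim2, and the feedback inhibitors Cish, Socs2 and Socs3. They were chosen by name, from knowledge of the pathway, with earlier results of these data known. A promoter capture Hi-C contact was assigned to a gene when the captured HindIII fragment holds the annotated start or end of that gene on mouse build mm10. This placed the 10 genes on 12 of 21022 captured fragments that hold a gene start or end, and the 10 are among 16720 protein-coding genes with such a fragment.

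EPO holds its receptor in an active dimer, and the JAK2 kinase bound to the receptor tail then phosphorylates the receptor and the STAT5 proteins. STAT5A and STAT5B move to the nucleus and switch on genes for survival, such as Bcl2l1, and genes for inhibitors that act back on the receptor, such as Cish, Socs2 and Socs3. Red cell precursors depend on this pathway for survival, and HPC-7 cells, a mouse blood progenitor line grown with stem cell factor (SCF), can be driven towards the erythroid lineage with EPO.

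The study combined knockdown of cohesin, a ring-shaped complex that forms DNA loops, with EPO-driven differentiation of HPC-7 cells. Contacts were read in 3 conditions, each deposited as 1 list that pools 2 libraries. Ery shStag2 cells carried a doxycycline-induced hairpin against Stag2, which encodes a cohesin subunit, and were cultured with EPO at 4 U/l and SCF at 20 ng/ul. Ery Luc cells carried a hairpin against luciferase and had the same EPO and SCF, so they are the control for the Stag2 hairpin. HPC cells were untransduced progenitors in 100 ng/ul SCF, and so they differ from Ery Luc cells in transduction and SCF dose as well as in EPO treatment, and their labels name no doxycycline. Labels of both Ery groups give doxycycline for 72 h, except that of 1 Ery Luc library, which reads 73 h.

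The lists hold 130734 interactions in Ery shStag2, 123042 in Ery Luc and 112183 in HPC, of which 120982, 114254 and 111657 lie within a chromosome. The median distance between the ends was 241.3 kb in Ery shStag2, 214.4 kb in Ery Luc and 154.1 kb in HPC, so the lists differ in reach as well as in size. Each list keeps interactions with an authors' score of 5 or more, and the score ranks contacts within its own list. Scores of different lists are set side by side below and are not levels. With 1 pool per condition nothing measures the spread between replicates, so no p-value is given, and a gain or loss means a difference of at least 2 listed interactions within the chromosome. RNA-seq of 15 libraries holds 22288469 to 33355332 assigned counts per library, but none of its 55943 transcript identifiers could be paired with a gene, so RNA levels of the 10 genes, of Stag2 and of erythroid markers are not given.

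Promoter sequences of the genes are shown first, because STAT5 is known to bind the palindrome TTCNNNGAA and several of these genes are textbook STAT5 targets. RefSeq windows (GRCm38.p6) of 250 bases before to 50 bases after a transcript start were found for 9 of the 10 genes, 14 windows in all, and both strands were searched. Of the 14 windows, 2 held a match, those of Cish and Socs3, and 8.3% of 32851 windows of the genome did. Cish held 2 matches 11 bases apart from first base to first base, and 0.457% of windows hold 2 or more. The Cish window is chr9:107296409-107296708 on the plus strand and the Socs3 window chr11:117969317-117969616 on the minus strand, each printed 5′ to 3′ with the matches in capitals.
Cish: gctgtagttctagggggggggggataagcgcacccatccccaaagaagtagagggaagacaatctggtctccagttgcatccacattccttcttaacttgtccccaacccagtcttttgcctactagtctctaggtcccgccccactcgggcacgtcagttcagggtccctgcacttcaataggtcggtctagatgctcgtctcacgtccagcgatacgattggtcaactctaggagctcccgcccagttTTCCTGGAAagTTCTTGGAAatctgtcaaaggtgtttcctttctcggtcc
Socs3: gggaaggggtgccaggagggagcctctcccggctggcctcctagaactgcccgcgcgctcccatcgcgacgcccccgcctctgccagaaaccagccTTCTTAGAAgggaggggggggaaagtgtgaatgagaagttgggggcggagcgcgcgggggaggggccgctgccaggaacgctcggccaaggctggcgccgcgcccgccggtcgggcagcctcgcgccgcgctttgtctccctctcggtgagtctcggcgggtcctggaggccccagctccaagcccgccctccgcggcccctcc
In Cish the match TTCCTGGAA begins at the start base itself and TTCTTGGAA lies 11 bases further on, and in Socs3 the match TTCTTAGAA begins 154 bases before the start.

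Neither the Epor nor any of the 3 Bcl2l1 windows held TTCNNNGAA. All 14 windows were also searched, after the data had been seen, for AGATAA, a motif of the erythroid GATA factors. Of these windows 2 held it, 1 of Epor and 1 of Bcl2l1, and 11.2% of all windows do. The Epor window, chr9:21963527-21963826 on the minus strand, has it in reverse complement (TTATCT) from 54 bases before the start. The downstream Bcl2l1 window, chr2:152828440-152828739 on the minus strand, has it from 41 bases before that start. Both are printed with this match in capitals, since these genes open and lead the contact results below. The printed Bcl2l1 window lies on no captured fragment, and the Bcl2l1 windows on the captured start fragment held no AGATAA.
Epor: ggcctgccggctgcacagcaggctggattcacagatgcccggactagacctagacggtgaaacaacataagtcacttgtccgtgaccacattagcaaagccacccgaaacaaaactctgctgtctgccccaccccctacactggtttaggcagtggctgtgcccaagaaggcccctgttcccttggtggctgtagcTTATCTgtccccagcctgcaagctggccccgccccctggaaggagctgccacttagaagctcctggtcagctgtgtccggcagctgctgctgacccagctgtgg
Bcl2l1: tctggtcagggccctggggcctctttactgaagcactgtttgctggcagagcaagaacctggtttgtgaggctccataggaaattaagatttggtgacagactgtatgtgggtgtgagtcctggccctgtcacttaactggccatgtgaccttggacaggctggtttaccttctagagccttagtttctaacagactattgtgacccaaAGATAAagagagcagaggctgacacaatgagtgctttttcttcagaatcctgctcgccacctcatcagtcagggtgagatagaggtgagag
A match is a run of letters and no binding was measured here.

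The 10 genes together had 94 listed interactions in Ery shStag2, 131 in Ery Luc and 91 in HPC, counting the shared Stat5a and Stat5b fragment for each gene. Against HPC, 7 of the 10 genes gained in Ery Luc (Epor, Jak2, Stat5a, Stat5b, Bcl2l1, Pim2 and Socs2), where 34.2% of 14956 genes gained, and 3 lost (Pim1, Cish and Socs3), where 27.6% lost. Against Ery Luc, 2 of the 10 gained in Ery shStag2 (Cish and Socs2), where 31.0% of 15360 genes gained, and 5 lost (Jak2, Stat5a, Stat5b, Bcl2l1 and Pim2), where 25.5% lost. Epor, Pim1 and Socs3 differed by less than 2 in that comparison, although Epor differed by -4 once pairs that list it as the other end were added. The median difference over the 10 genes was 3 in Ery Luc against HPC, where all genes had 1, and -3 in Ery shStag2 against Ery Luc, where all genes had 0. Stat5a and Stat5b enter these gains, losses and medians with the same fragment, so the 10 values are not independent. In Ery shStag2 against Ery Luc, the median of -3 lies between the -5 of that fragment and the -1 of Socs3. Both comparisons use the Ery Luc list, so a high count there raises the first difference and lowers the second. The median in Ery Luc was 4 interactions per gene. Bcl2l1, with 31, had more than 96.6% of genes there, and Epor and Jak2, with 17 each, more than 88.3%. Socs3, with 2, had more than 31.9%, and Pim1, with 1, more than 17.5%. The shares of all genes, here and for single genes below, were not matched for number of interactions. The part of that number in the gains and losses was not tested.

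**Figure D1:**
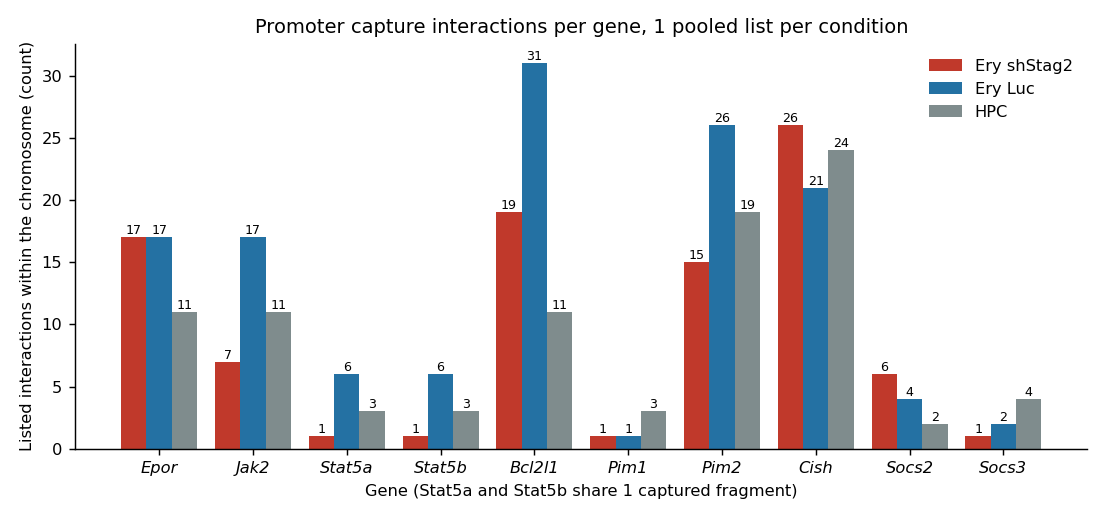
Listed interactions within the chromosome (count, y axis) for each of the 10 genes (x axis), with a bar each for Ery shStag2, Ery Luc and HPC; each list is 1 pool, so there are no error bars. Bcl2l1 has 19, 31 and 11, Jak2 has 7, 17 and 11, and Cish, unlike these, has its lowest bar, 21, in Ery Luc.

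**Figure D2:**
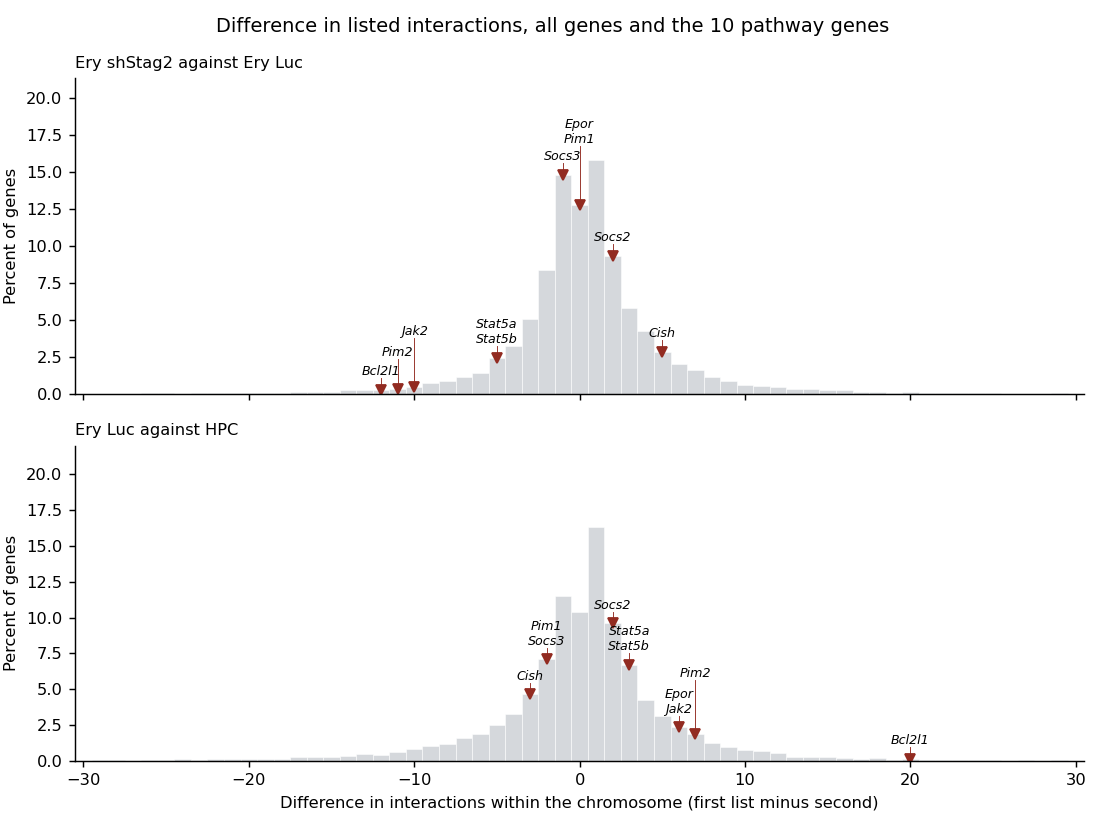
Percent of genes (y axis) at each difference in interactions (x axis), for Ery shStag2 minus Ery Luc above and Ery Luc minus HPC below, with the 10 genes marked by triangles at their differences. Bcl2l1 lies at -12 above and at 20 below, and the x axis ends at 30 interactions either way.

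The receptor gene Epor lies at chr9:21958897-21963576 on the minus strand and has a captured fragment at each end. It had 17 interactions in Ery shStag2, 17 in Ery Luc and 11 in HPC. The gain of 6 in Ery Luc over HPC was exceeded by 8.13% of genes. The fragment over the start (chr9:21960193-21964487) contributed 11, 10 and 9 interactions in the same order of lists, and the fragment over the end (chr9:21953283-21959385) contributed 6, 7 and 2. Most of the difference from HPC thus stood at the fragment over the gene end, which also holds an end of Swsap1, and contacts of these genes cannot be told apart.

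Nearly all Epor contacts pointed upstream of the gene, towards higher coordinates: 14 of 17 in Ery shStag2, 16 of 17 in Ery Luc and 10 of 11 in HPC. They gathered around Acp5, which encodes an acid phosphatase, and the nearest of these upstream ends was 99.6 kb away. Among contacts with the start fragment as the captured end, the highest-scoring in both Ery lists lay 183 kb away. Its other end was chr9:22144724-22145003, a short fragment with no protein-coding gene in it. It scored 11.16 in Ery shStag2, 12.38 in Ery Luc and 8.54 in HPC. A neighbouring fragment 176 kb away (chr9:22136571-22140726), 0.825 kb from Acp5, scored 10.83, 8.41 and 9.15 in these lists and was the highest such contact in HPC. Another fragment 158 kb away (chr9:22117862-22123716) was likewise in all 3 lists, at 8.39, 8.05 and 6.38. The end fragment met the same short piece, 189 kb away, with a score of 8.78 in Ery shStag2 and 6.85 in Ery Luc, and that pair was not listed in HPC.

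The Epor start fragment was also listed as the other end of 8 captured fragments in Ery shStag2, 12 in Ery Luc and 9 in HPC. Among these, the captured Acp5 fragment 168 kb away scored 11.08 in Ery shStag2, 15.24 in Ery Luc and 10.36 in HPC. The captured fragment over ends of Cnn1 and Elof1, 149 kb away, scored 13.49, 10.37 and 7.23 in these lists. The captured Pigyl fragment, 196 kb away, scored 8.56, 12.46 and 17.31. With the start fragment in either place, its highest score was thus with Cnn1 and Elof1 in Ery shStag2, Acp5 in Ery Luc and Pigyl in HPC. Counting pairs with the Epor fragments in either place gave 25, 29 and 20 interactions in the 3 lists, so the receptor's count was lowest in HPC by either count. The Ery lists were equal by captured fragment, but Ery shStag2 stood below Ery Luc with either place counted. Of 31 Epor contacts, 4 were in all 3 lists and 21 in a single list. After joining other ends within 10 kb of each other, the 17, 17 and 11 interactions came to 7, 8 and 6 regions. The 3 genes with counts nearest to those of Epor, by the sum of absolute differences over the 3 lists, were Golga4 (17, 17 and 11, a sum of 0), Celf3 (17, 18 and 11, a sum of 1) and Riiad1 (17, 18 and 11, a sum of 1).

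Jak2, the kinase bound to the receptor, lies at chr19:29251803-29313095 on the plus strand and has a captured fragment over its start. It had 7 interactions in Ery shStag2, 17 in Ery Luc and 11 in HPC. Its difference of -10 in Ery shStag2 against Ery Luc was undercut by 1.83% of genes. In Ery Luc all 17 contacts lay upstream, 112 to 310 kb away, and in HPC 10 of 11 did. In Ery shStag2, 5 of 7 lay upstream, and the other contacts, 254 and 560 kb downstream, were in no other list.

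The highest-scoring Jak2 contact of both Ery Luc and HPC was absent from the Ery shStag2 list. It joins the Jak2 start to the fragment over an end of Ak3 (chr19:29046884-29048430, 206 kb away), a gene for a mitochondrial adenylate kinase, with a score of 14.3 in Ery Luc and 14.57 in HPC. A fragment within Rcl1 (chr19:29134793-29136772, 118 kb away) was likewise not listed in Ery shStag2, and scored 8.2 in Ery Luc and 13.46 in HPC. A fragment within Ak3 (chr19:29045410-29046804, 207 kb away), close to that over the end of Ak3, was listed in Ery shStag2 alone, at 6.08. Another 3 fragments of this upstream stretch were listed in every condition. The fragment next to that of Ak3 (chr19:29048431-29054335, 202 kb away) scored 6.9 in Ery shStag2, 7.27 in Ery Luc and 6.43 in HPC. The fragment over an end of Rcl1 (chr19:29100587-29102159, 152 kb away) scored 9.72 in Ery shStag2, its highest there, 7.13 in Ery Luc and 10.74 in HPC. The fragment over an end of Cdc37l1, 262 kb away, scored 5.18 in Ery shStag2, 8.05 in Ery Luc and 5.95 in HPC. The upstream stretch was thus not emptied in Ery shStag2. Of 24 Jak2 contacts, 3 were in all 3 lists, 5 in Ery Luc and HPC but not in Ery shStag2, and 9 in Ery Luc alone. Joined within 10 kb, the contacts came to 6 regions in Ery shStag2, 7 in Ery Luc and 6 in HPC, so the lists differed more in fragments than in regions. With a score of at least 7 required, Jak2 kept 1 interaction in Ery shStag2, 9 in Ery Luc and 5 in HPC, and at a score of at least 10 the difference between Ery Luc and HPC turned to -2.

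**Figure D3:**
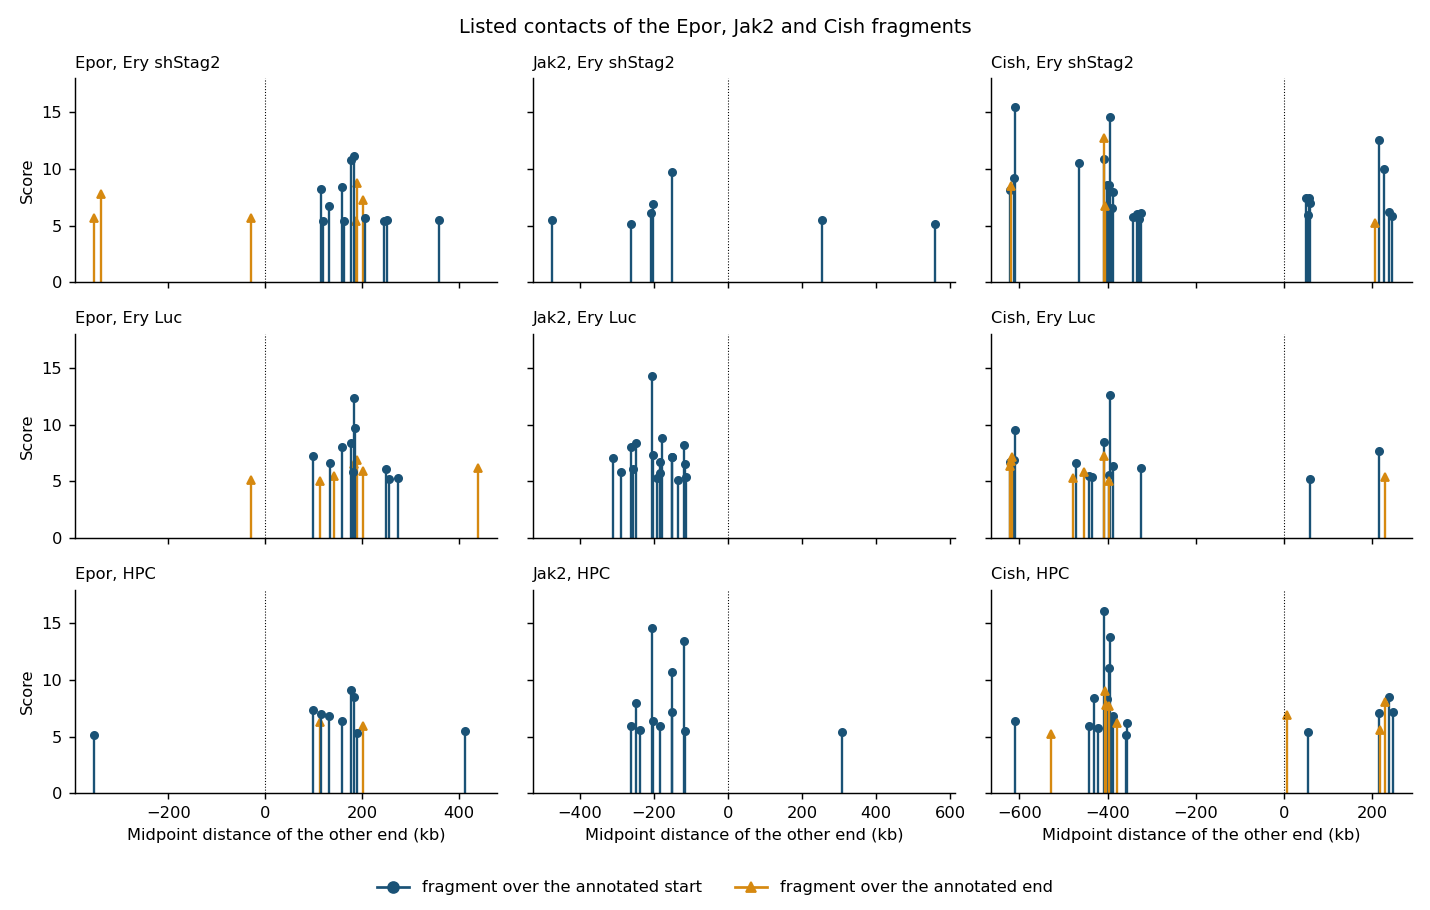
Authors' score (y axis) of each listed contact against the midpoint distance of its other end from the captured fragment (kb, x axis, lower coordinates to the left), in columns for Epor, Jak2 and Cish and rows for Ery shStag2, Ery Luc and HPC; circles are contacts of the fragment over the start and triangles of that over the end. The Jak2 contact 206 kb to the left stands at 14.3 in Ery Luc and 14.57 in HPC and is missing in Ery shStag2, while Epor contacts gather 158 to 202 kb to the right in all 3 rows.

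Stat5a and Stat5b, the signal-carrying transcription factors, have their outer annotated starts back to back on chromosome 11 within the same captured fragment (chr11:100855494-100861990). Contacts of that fragment cannot be assigned to either gene. It had 1 interaction in Ery shStag2, 6 in Ery Luc and 3 in HPC, all scoring low. The highest were 5.59 in Ery shStag2, with a fragment within Rab5c 127 kb away, 6.72 in Ery Luc, with a fragment over an end of Rab5c 123 kb away, and 7.6 in HPC, with the fragment over ends of Mlx and Psmc3ip 235 kb away. Rab5c encodes a small GTPase of early endosomes. Its end fragment scored 5.15 in HPC, where it was the single contact shared with Ery Luc. None of the RefSeq windows found for Stat5b lies on the shared fragment. Of these windows, 1 lies on another captured fragment (chr11:100849925-100851842), and adding that fragment gave Stat5b 2 interactions in Ery shStag2, 8 in Ery Luc and 3 in HPC. No contact of the shared fragment was in all 3 lists as an identical fragment, although 1 of 5 regions was after joining ends within 10 kb. The difference of -5 in Ery shStag2 against Ery Luc was undercut by 6.45% of genes and rests on these few, low-scoring contacts. With a score of at least 7 required, the difference between Ery Luc and HPC turned to -1.

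Bcl2l1, which encodes the survival protein BCL-XL that erythroid precursors need, showed the largest difference of the 10 genes in each comparison. It had 19 interactions in Ery shStag2, 31 in Ery Luc and 11 in HPC. The gain of 20 in Ery Luc over HPC was exceeded by 0.588% of genes, and the difference of -12 in Ery shStag2 against Ery Luc was undercut by 1.26%. The fragment over the start (chr2:152830578-152846661) had 10 interactions in Ery shStag2, 18 in Ery Luc and 5 in HPC. The fragment over the annotated end (chr2:152742148-152761473), which also holds an end of Cox4i2, had 9, 13 and 6 in these lists. Joined within 10 kb, the other ends of both came to 6 regions in Ery shStag2, 9 in Ery Luc and 5 in HPC, a difference of -3 in Ery shStag2 against Ery Luc and of 4 in Ery Luc against HPC. Both fragments thus had the most contacts in Ery Luc and the fewest in HPC.

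All 5 HPC contacts of the Bcl2l1 start fragment were also in both Ery lists, and 3 of them ran over the gene body to a stretch beyond its end that holds Id1, Mcts2 and H13. Id1 encodes an inhibitor of helix-loop-helix transcription factors and is itself a known STAT5 target in mouse cells. The Id1 fragment (chr2:152730240-152742147, 102 kb away) scored 25.23 in Ery shStag2, 35.62 in Ery Luc and 7.37 in HPC, and was the highest-scoring Bcl2l1 contact of Ery Luc. The Mcts2 fragment (chr2:152686513-152690916, 150 kb away) scored 45.43, 35.09 and 18.67 in these lists and was the highest in Ery shStag2. The fragment over an end of H13 (chr2:152668714-152671060, 169 kb away), a gene for a membrane protease, scored 35.99, 29.06 and 28.14 and was the highest in HPC. The rank of these 3 partners therefore differed between all 3 lists, with Id1 at the top in Ery Luc and at the bottom of the 3 in both others.

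The start fragment also met the fragment over the gene's own end 86.8 kb away, with 16.96 in Ery shStag2, 16.78 in Ery Luc and 5.29 in HPC. On the other side, it met the Tpx2 fragment 9.41 kb away with 14.64 in Ery shStag2, 10.62 in Ery Luc and 6.36 in HPC. A fragment within H13 (chr2:152690917-152696866) was listed with the Bcl2l1 start at 15.53 in Ery shStag2 and 6.19 in Ery Luc, and was not listed in HPC. The end fragment met the piece of the gene that holds the downstream Bcl2l1 window printed above (chr2:152823498-152829940, 74.9 kb away), with 5.39 in Ery shStag2, 12.55 in Ery Luc and 9.5 in HPC.

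Of 36 Bcl2l1 contacts, 9 were in all 3 lists, 6 in both Ery lists but not in HPC, 15 in Ery Luc alone (none scoring above 8.61), 4 in Ery shStag2 alone and 1 in HPC alone. The Ery Luc contacts with no counterpart included the fragments over ends of Csnk2a1 (611 kb away, score 8.09), Defb36 and Defb45 (239 kb, 8.61), Defb19 (255 kb, 6.38), Defb25 and Rem1 (215 kb, 5.72) and Tm9sf4 (322 kb, 7.33). They also included pairs 11342 and 15951 kb long, the only contacts over 1000 kb counted for the 10 genes, by the captured-fragment rule, in any list. With a score of at least 7 required, Bcl2l1 had 11 interactions in Ery shStag2, 18 in Ery Luc and 6 in HPC. At a score of at least 10, Ery shStag2 had 9 and Ery Luc 7, which turns the direction of that comparison.

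**Figure D4:**
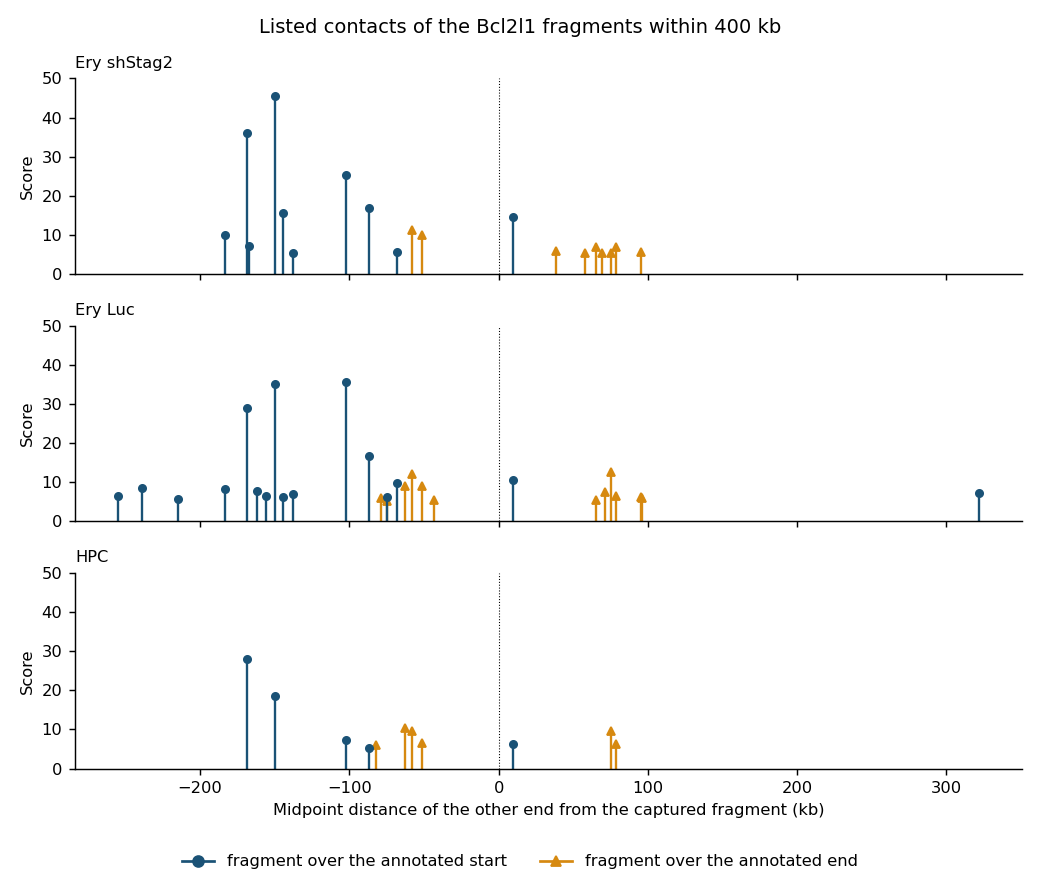
Authors' score (y axis) of the listed Bcl2l1 contacts within 400 kb against the midpoint distance of the other end from the captured fragment (kb, x axis, lower coordinates to the left), with rows for Ery shStag2, Ery Luc and HPC; circles are contacts of the fragment over the start and triangles of that over the end. The circle at 102 kb to the left, the Id1 fragment, stands at 25.23 in Ery shStag2, 35.62 in Ery Luc and 7.37 in HPC.

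The PIM kinases, which phosphorylate survival and growth proteins, differed from each other in contact number. Pim1, on the fragment chr17:29487583-29495733, had 1 interaction in Ery shStag2, 1 in Ery Luc and 3 in HPC, and none of the 5 was shared between lists. They were with Stk38 502 kb away in Ery shStag2 (5.09), Ppil1 230 kb away in Ery Luc (6.69), and in HPC with Mtch1 and Fgd2 137 kb away (6.37), Pi16 175 kb away (5.89) and a fragment 1.8 kb from Fgd2 109 kb away (5.83). At 1 to 3 interactions, the loss of 2 in Ery Luc against HPC rests on single listed pairs.

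Pim2 lies on the X chromosome in a gene-dense stretch, and its fragment (chrX:7870519-7886058) also holds an end of Otud5 and an end of Slc35a2. It had 15 interactions in Ery shStag2, 26 in Ery Luc and 19 in HPC. The gain of 7 in Ery Luc over HPC was exceeded by 6.26% of genes, and the difference of -11 in Ery shStag2 against Ery Luc was undercut by 1.5%. Of all listed interactions within a chromosome, those on the X chromosome made up 2.31% in Ery shStag2, 2.7% in Ery Luc and 1.47% in HPC. The share of the whole chromosome thus moved in the same directions, and its part in the Pim2 counts was not tested. The highest-scoring contacts in Ery Luc and HPC were close by, in Otud5: the fragment 15.6 kb away (chrX:7857164-7868312) scored 8.77 in Ery shStag2, 12.2 in Ery Luc and 10.59 in HPC. In Ery shStag2 the highest was instead the fragment over an end of Wdr13 (chrX:8126159-8133291, 251 kb away), at 13.42, against 7.42 in Ery Luc and 6.1 in HPC. The fragment over an end of Gata1, the gene for the main erythroid GATA factor, lay 99.1 kb away (chrX:7974091-7980606) and was listed with Pim2 in HPC alone, at 6.97. Of the 36 contacts of Pim2 within the chromosome, 8 were in all 3 lists.

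Cish, the gene for the inhibitor CIS that binds the phosphorylated receptor, was the member with the most interactions in Ery shStag2 and HPC. It had 26 in Ery shStag2, 21 in Ery Luc and 24 in HPC. The difference of 5 in Ery shStag2 against Ery Luc was exceeded by 8.83% of genes. The fragment over the start (chr9:107292977-107299222), which carries the pair of STAT5 palindromes printed above, had 22 interactions in Ery shStag2, 13 in Ery Luc and 16 in HPC. The fragment over the end (chr9:107299223-107310393) had 4, 8 and 8 in these lists, so the adjoining fragments of Cish went opposite ways between Ery shStag2 and Ery Luc.

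Contacts of Cish were long, with median distances of 365 kb in Ery shStag2, 435 kb in Ery Luc and 393 kb in HPC. The highest-scoring in Ery shStag2 was the fragment over an end of Tex264 (chr9:106684316-106686591, 611 kb away), a gene for a receptor of endoplasmic reticulum autophagy, at 15.47, against 9.52 in Ery Luc and 6.41 in HPC. The highest in Ery Luc was a fragment within Dock3 (chr9:106898874-106904093, 395 kb away), which scored 14.6 in Ery shStag2, 12.63 in Ery Luc and 13.81 in HPC. The highest in HPC was the fragment over ends of Manf, Rbm15b and Dock3 (chr9:106883328-106893601, 408 kb away), with 10.92 in Ery shStag2, 8.48 in Ery Luc and 16.06 in HPC. All 3 partners were thus listed in every condition, with a different order of scores in each. On the other side, a fragment within Cacna2d2 (chr9:107505928-107515630, 215 kb away) scored 12.54 in Ery shStag2, 7.64 in Ery Luc and 7.05 in HPC, and the next fragment (chr9:107515631-107529463) was listed with the start in Ery shStag2 alone, at 10.03. Of 45 Cish contacts, 6 were in all 3 lists and 25 in a single list. Joined within 10 kb, they came to 6 regions in Ery shStag2, 8 in Ery Luc and 8 in HPC, so Ery shStag2 had more fragments in fewer regions.

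Socs2, whose product restrains growth hormone and cytokine receptors, has its higher-coordinate end on the captured fragment chr10:95416626-95417972. It had 6 interactions in Ery shStag2, 4 in Ery Luc and 2 in HPC, the only member whose count was highest in Ery shStag2 and lowest in HPC. All lay towards lower coordinates. A stretch with no protein-coding gene, 41.5 kb and more from Plxnc1, held 3 of 6 in Ery shStag2 and 3 of 4 in Ery Luc. There, a fragment 429 kb away (chr10:94986528-94990853) scored 8.52 in Ery shStag2 and 7.25 in Ery Luc, and a fragment 425 kb away (chr10:94991066-94992605) scored 11.87 in Ery shStag2 and was in no other list. No Socs2 contact in that stretch was listed in HPC. The fragment over an end of Cradd, 93.4 kb away, was listed in Ery Luc at 6.8 and in HPC at 6.66 and not in Ery shStag2.

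Socs3, whose product blocks JAK2 at the receptor, lies whole on the fragment chr11:117958092-117972758. It had 1 interaction in Ery shStag2, 2 in Ery Luc and 4 in HPC, the reverse order to Socs2. Its single contact in all 3 lists was the fragment over ends of Tha1 and Tmem235 (chr11:117864864-117879587, 93.2 kb away), the highest-scoring in each list, at 7.11 in Ery shStag2, 9.08 in Ery Luc and 7.28 in HPC. Contacts with Pgs1 20.2 kb away (5.96) and with a fragment within Cyth1 275 kb away (6.06) were in HPC alone. With so few contacts the gain or loss of Socs2 and Socs3 turns on single pairs.

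Over all 10 genes there were 201 different contacts within a chromosome, of which 31 were in all 3 lists, 43 in 2 and 127 in 1. Of the Ery Luc contacts, 48 of 125 (38.4%, exact binomial interval 29.8 to 47.5, counting error only) were also in HPC. Of all Ery Luc contacts listed within a chromosome, 44.2% were. In Ery shStag2, 47 of the 125 were found (37.6%, 29.1 to 46.7), against 47.6% of all such listed contacts. Sharing differed by score. Of the 12 Ery Luc contacts scoring 10 or more, 12 were in HPC and 11 in Ery shStag2. Of all listed contacts in that band, 79.0% and 88.9% were. The missing pair was Jak2 with the fragment over an end of Ak3, near which Ery shStag2 listed another fragment, within Ak3. Of the 76 scoring under 7, 15 were in HPC (19.7%) and 16 in Ery shStag2 (21.1%), while 32.9% and 33.5% of all listed contacts in that band were. With other ends within 10 kb counted as the same, 67.2% of the Ery Luc contacts of the 10 genes had a counterpart in HPC and 67.2% in Ery shStag2. Of all Ery Luc contacts within a chromosome, 67.9% and 72.6% did.

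Captured fragments made up 24.7% of the other ends of the 10 genes in Ery shStag2, 31.2% in Ery Luc and 38.6% in HPC, where they made up 19.8%, 20.9% and 21.5% of all other ends. Their median distances were 202 kb in Ery shStag2, 179 kb in Ery Luc and 182 kb in HPC, where all contacts had 241, 214 and 154 kb. The medians of the 10 genes were therefore below those of all contacts in both Ery lists and above in HPC. These shares and medians were not tested.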

How the data were processed

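Promoter capture interactions came as 3 deposited lists of HindIII fragment pairs with a score that the authors gave, 1 list for each condition, pooling 2 libraries. Neither the scoring software nor the sequencing depth is given in the sources used here, so depth is unknown. RNA-seq tables hold raw counts per transcript, for which the submitters' processing notes name STAR 2.4.0, HTSeq and mm10. Their identifiers matched neither reference table, so the planned edgeR tests were not run.

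Captured fragments were matched to annotated gene starts and ends of GRCm38.p6, the RefSeq release of mm10. Pairs of captured fragments are listed in a single order, so a contact with the member as other end counts only in the alternative that reads either column. Distances run between fragment midpoints. Shared means identical fragments in both lists, and intervals are exact binomial at 95%. Counting was tested on simulated data. Python 3.11.15, pandas 2.3.3, SciPy 1.17.1 and matplotlib 3.10.9 were used.

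All 10 genes are named. Up to 3 highest-scoring contacts per gene and list were to be named; further ones were chosen after their values were seen. Members and gene lists were chosen with earlier results of these data known. Chromatin immunoprecipitation samples were not analysed here, and 1 gene that the naming rule picked is not reported here.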

Additional observations from a re-analysis of the deposited data

How the results depend on the processing

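Of 151 alternative values of the 17 gains and losses of single genes, 128 stayed within counting error of the value reported, 18 moved beyond it without turning and 5 turned. Counting error is wide at such counts, so a value within it can still be much smaller. With other ends joined within 10 kb, the Bcl2l1 gain of 20 in Ery Luc against HPC became 4. The Jak2 difference of -10 in Ery shStag2 against Ery Luc became -1 there, and both were counted as within it. For a gene with 1 captured fragment, over its start, counting starts alone or each other end once cannot change the count. In Ery Luc against HPC, the genes that gained numbered 3 at a score of at least 7 and 1 at a score of at least 10, and those that lost numbered 1 at a score of at least 7 and 1 per 100000 listed interactions. In Ery shStag2 against Ery Luc, the genes that gained numbered 1 with fragments over starts alone (where Socs2, with no strand, drops out), 1 per 100000 interactions and 0 with other ends joined within 10 kb. Those that lost numbered 3 at a score of at least 7, 0 at a score of at least 10, and 6, with Epor among them, when either column was read. Shares of all genes under these alternatives are not given here. Whether the counts of the 10 genes changed more than those of other genes therefore cannot be told. Turned values were Jak2 in Ery Luc against HPC (-2 at a score of at least 10), Stat5a and Stat5b in the same comparison (-1 each at a score of at least 7), Bcl2l1 in Ery shStag2 against Ery Luc (2 at a score of at least 10) and Cish there (-2 joined within 10 kb). The cause was not tested. With other ends within 10 kb counted as the same, the shared share was 67.2% in HPC and 67.2% in Ery shStag2. With a spacer of 4 bases in the STAT5 palindrome, 1 of the 14 windows held a match, the window printed for Bcl2l1 (4 bases before the start), and 6.95% of all windows do. The alternatives that read either column, add fragments with RefSeq windows, or join other ends within 10 kb were chosen after seeing the data. No paired analysis was possible because each list pools its 2 libraries. The RNA tests and their alternatives were not run, since no transcript could be paired with a gene. Unknown read depth limits every count near the score of 5.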

Other observations

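Further genes of the pathway, in lists of adaptors and kinases, brakes, other targets and receptors that share JAK2 or STAT5, were counted the same way. In Ery Luc against HPC, 25 of 57 gained and 16 lost (43.9% and 28.1%), with a median difference of 1, and in Ery shStag2 against Ery Luc 27 of 61 gained and 18 lost (44.3% and 29.5%), also with a median of 1. Of all genes, 34.2% gained and 27.6% lost in the first of these comparisons, with a median of 1, and 31.0% gained and 25.5% lost in the second, with a median of 0. In Ery shStag2 against Ery Luc, 13 of 21 adaptors and kinases gained and 5 lost, 8 of 19 brakes gained and 6 lost, 3 of 15 other targets gained and 7 lost, and 3 of 6 receptors gained and 0 lost. In Ery Luc against HPC, 7 of 20 adaptors and kinases gained and 7 lost, 8 of 18 brakes gained and 5 lost, 8 of 15 other targets gained and 4 lost, and 2 of 4 receptors gained and 0 lost.

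Among the large gains in Ery Luc over HPC were equal gains of 11 in the adaptor Gab2, with 14 interactions in Ery shStag2, 14 in Ery Luc and 3 in HPC, and in the growth regulator Myc, with 21, 29 and 18. The largest loss in that comparison was that of the ERK phosphatase Dusp6, with 24, 16 and 36, followed by equal losses of 12 in the cyclin Ccnd1, with 30, 33 and 45, the adaptor Irs2, with 9, 3 and 15, and the phospholipase Plcg2, with 16, 11 and 23. In Ery shStag2 against Ery Luc, the phospholipase Plcg1 had 47 in Ery shStag2, 34 in Ery Luc and 36 in HPC, the largest gain, followed by equal gains of 9 in the phosphatase Dusp4, with 16, 7 and 5, and the PI3 kinase subunit Pik3r1, with 29, 20 and 19. The largest losses there were those of the kinase Pim3, with 5, 15 and 12, and of Myc, with the counts given above.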
